A study of Mus musculus with 30 samples.

Results

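Platelet RNA of mice inoculated with few melanoma cells was compared with platelet RNA of mice that received none. The comparison took the 5 platelet libraries of S group (the labels call them early tumor) and the 5 of C group (ctrl), 10 of the 30 libraries of the series, chosen by their labels alone. Every mouse was a female C57BL/6 aged 6 to 8 weeks. S group mice received 2000 B16F10 cells, a mouse melanoma line, under the skin, an inoculum below the optimal one that leaves most mice without a visible tumor, so that most mice of an S group pool may never have developed one. C group mice received only HBSS, a salt solution. Blood was drawn from the retro-orbital sinus behind the eye on day 14, into EDTA, and platelets were spun down from platelet-rich plasma. A first, slow spin separated this plasma from a bottom layer, from which the PBMC were taken, and no further depletion of leukocytes from the platelets is described. Each library was made from pooled mice, 10 per pool in S group by the labels and 10, 5, 5, 10 and 10 in C group, so a replicate is a pool and not an animal. The study's methods give slightly different sizes for a pair of the S group pools. PBMC (peripheral blood mononuclear cells) of the same kinds of mice and platelets of O group (100000 B16F10 cells, large tumor) were used only where named.

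Platelets have no nucleus. They are shed by megakaryocytes of the bone marrow with a share of the parent cell's RNA, can take up RNA from plasma, and cannot transcribe nuclear genes. Their RNA of nuclear genes is therefore read as a record of the megakaryocytes and of what the platelets met in the blood. A platelet preparation also holds some reticulocytes and leukocytes, whose RNA is sequenced with it. In bulk RNA, more cells of a type and more RNA per cell cannot be told apart.

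The label was met by the platelet markers. The integrin subunit Itga2b, the chemokines Ppbp and Pf4, the GPIb-IX subunit Gp9 and the platelet tubulin Tubb1 were counted in all 10 libraries, with S group medians of 5815, 5478, 4429, 1852 and 1823 CPM (counts as a rate of the library size, which was scaled by the TMM method). The cell type tag of these samples reads PBMC, while their titles and sources read platelet. Total counts on genes lay between 15150337 and 17564706 in the S group pools and between 15286572 and 25360080 in the controls. Hemoglobin genes took 11.6% to 22.1% of the S group counts and 5.29% to 27.6% of the control counts. With all 10 libraries, no library measure passed an exact permutation test between the groups (two-sided, smallest p that 5 against 5 allows 0.00794), with p = 0.302 for the hemoglobin share, 0.103 for the number of genes detected and 0.0714 for the share of the 10 most abundant genes (adjusted over 6 measures 0.362, 0.238 and 0.238). The hemoglobin-poor pool was C group replicate 2. Without it the S minus C difference in hemoglobin share was -8.38 percentage points (exact permutation p = 0.0238, unadjusted). The number of genes detected reached p = 0.0238 without S group replicate 2 and 0.0476 without S group replicate 3, and the share of the 10 most abundant genes reached 0.0238 without S group replicate 2 and 0.0476 without C group replicate 2 (exact permutation test, unadjusted).

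C group replicate 3 stood apart. It held RNA of the eye, which was looked for after the values of single genes had been seen. Gnat1, the rod transducin, had 149, 0, 4363, 5 and 25 counts in the 5 control libraries and 0 in every S group library. All 34 genes of rods, retinal pigment epithelium and lens that were examined had counts in C group replicate 3, and they summed to 1360 CPM of its total count. C group replicate 1 held 44.6 CPM and the other 8 libraries 12.1 to 19.01 CPM. Of the 34 genes, 4 passed the filter on low counts, and 2 of these, Sag (rod arrestin) and Rom1 (a rod outer segment protein), were among the genes called lower in S group. Sag had the largest fold change of all called genes. It stood at 0.425, 0.426, 0.644, 0.509 and 1.38 CPM in the S group pools, against 3.49, 0.823, 62.3, 0.548 and 1.00 CPM in the C group pools. How far this RNA bears on other genes was not tested, so the counts over all genes and over the larger groups of lists are also given without that library.

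**Figure D1:**
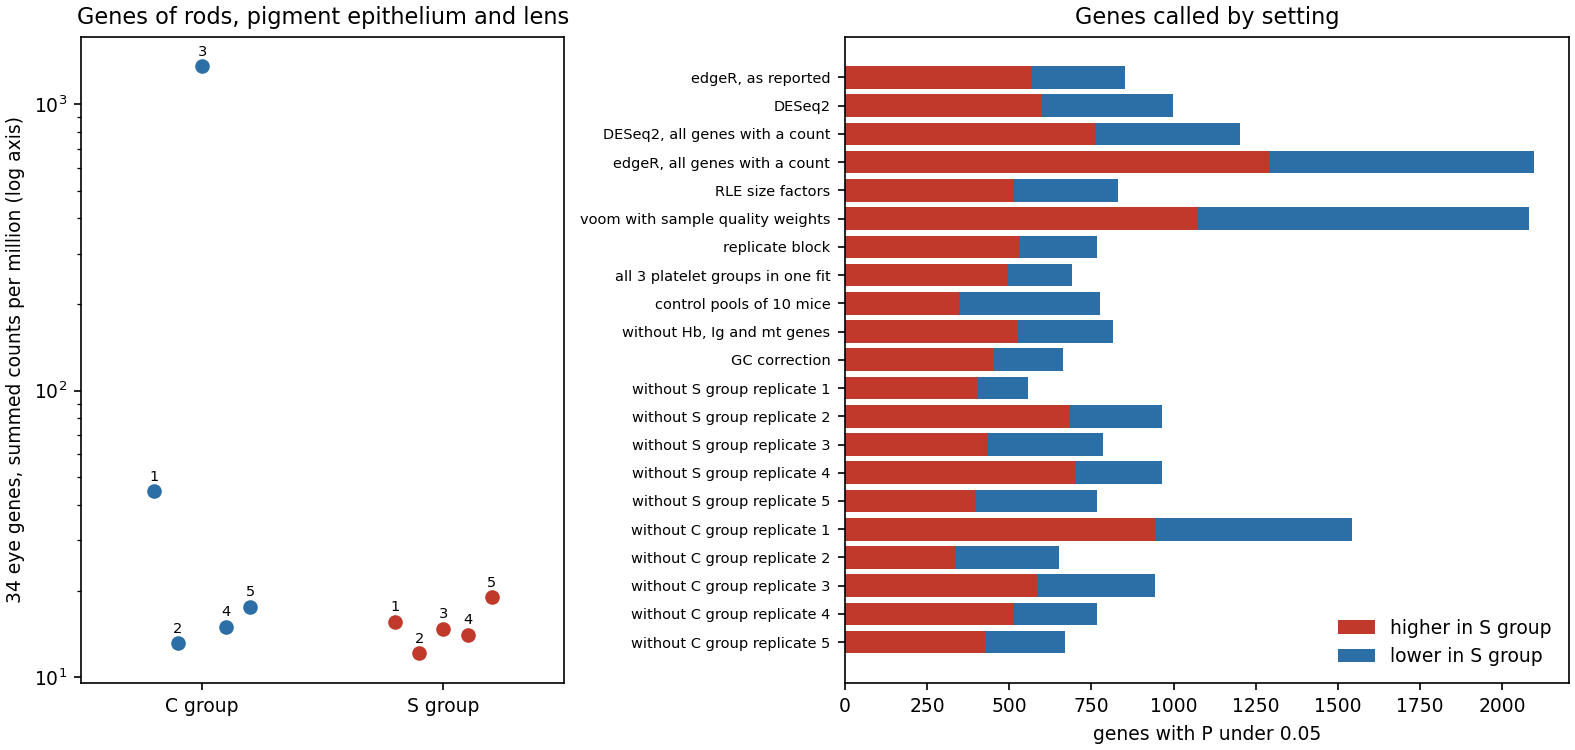
Left, summed CPM (of the total count) of 34 eye genes in each library (log axis, points numbered by replicate), with C group replicate 3 at 1360 and every S group library at or below 19.01. Right, number of genes with P under 0.05 in each setting of the test, split into higher and lower in S group, from 556 to 2097 in all.

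Cdkn1a was the 1 gene that differed after correction for all genes tested. It encodes p21, an inhibitor of cyclin-dependent kinases and a classical target of the tumor suppressor p53, and lies on chromosome 17, positions 29090976 to 29100727 of GRCm38 (+ strand). Its level was 18.7, 22.1, 31.6, 19.1 and 12.5 CPM in the 5 pools of S group and 7.97, 3.64, 4.95, 5.62 and 6.07 CPM in those of C group. The lowest S group pool was above the highest C group pool. The means were 20.8 ± 6.96 and 5.65 ± 1.59 CPM (SD, n = 5 pools each). The log2 fold change was 1.88 with a standard error of 0.255, a 3.68-fold higher level in S group (edgeR quasi-likelihood test, adjusted P = 0.0417). It ranged from 1.66 to 2.04 over the 20 alternatives, with P under 0.05 in all of them, while the adjusted P passed 0.05 in some and not in others. In PBMC the log2 fold change of Cdkn1a between the same groups was 0.06, which did not pass, and the difference of platelets from PBMC was 1.84 on the log2 scale, which passed the unadjusted threshold but not the correction (adjusted P of the difference = 0.611).

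The RefSeq promoter window of Cdkn1a that holds a p53 element is shown because this gene carries the single adjusted call. The window, chr17:29090729-29091028 on the + strand of GRCm38.p6, reaches from 250 bases before to 50 after a start site. Capitals mark the element, searched by name as the p53 consensus element of 2 adjoining half-sites on both strands with both cores intact and at most 1 mismatch elsewhere.
Cdkn1a promoter: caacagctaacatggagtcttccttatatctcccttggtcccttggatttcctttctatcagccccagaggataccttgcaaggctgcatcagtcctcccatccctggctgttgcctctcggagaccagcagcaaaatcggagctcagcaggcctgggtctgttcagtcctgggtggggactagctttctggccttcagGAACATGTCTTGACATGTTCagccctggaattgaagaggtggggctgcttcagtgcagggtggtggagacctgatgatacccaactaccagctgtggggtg
Such an element was found in 18 of 32851 RefSeq promoter windows (0.0548%), and in 1 of the 28 listed p53 target genes that have one, Cdkn1a itself. These letters describe the window and not a bound site.

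Of 33 p53 target genes tested, 3 (9.09%) were higher and none lower in S group, against 4.29% and 2.13% of all genes, with a median log2 fold change of 0.04 against -0.01 over all genes tested. The list had 2 higher and 3 lower without C group replicate 1, and between 2 and 4 higher without any other single pool. With voom 6 were higher and 5 lower. Besides Cdkn1a the higher genes were Bbc3 (PUMA, a pro-apoptotic BH3 protein) and Aen (an apoptosis-enhancing nuclease). Bbc3 stood at 20.2, 21.2, 25.1, 18.1 and 14.9 CPM in the S group pools, against 17.6, 12.7, 17.0, 10.96 and 10.2 CPM in the C group pools (log2 fold change 0.54, standard error 0.195, adjusted P = 0.746). Aen was higher by 0.40 on the log2 scale (adjusted P = 0.766). Mdm2, which restrains p53 and is itself a p53 target, stood at 30.5 ± 3.53 and 34.02 ± 1.39 CPM (SD, n = 5) in S and C group. Trp53 stood at 55.1 ± 5.45 and 55.9 ± 8.58 CPM (SD, n = 5). Of 9 cell cycle inhibitors, Cdkn1a was higher and Rb1, the retinoblastoma gene, lower (log2 fold change -0.48, adjusted P = 0.746).

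**Figure D2:**
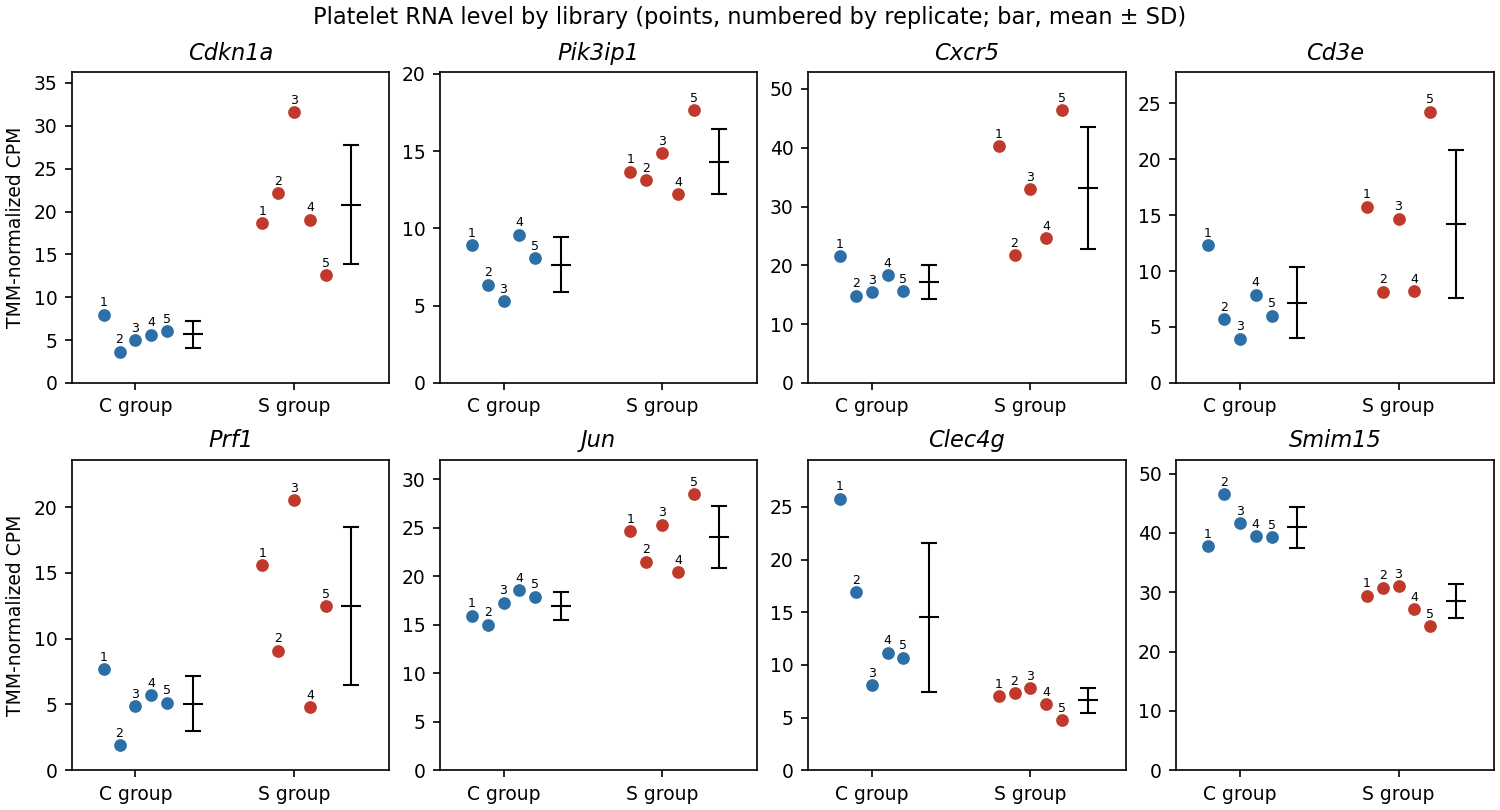
TMM-normalized CPM of 8 genes in each library (points numbered by replicate, with mean ± SD of 5 pools beside them). The groups do not overlap for Cdkn1a, Pik3ip1, Cxcr5, Jun, Clec4g and Smim15, and they overlap for Cd3e and Prf1.

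Across 13268 genes tested, 852 (6.42%) had an unadjusted P under 0.05, the threshold of the study. In S group 569 genes (4.29%) stood higher and 283 (2.13%) lower. After adjustment 1 gene (0.00754%), Cdkn1a, remained, and the next smallest adjusted P was 0.331, that of Ighv1-69. Every other gene called higher or lower here passed the unadjusted threshold and failed the correction, and its adjusted P was 0.331 or more. Of all genes tested, 48.0% had a log2 fold change above 0. The groups did not overlap for 158 genes (1.19% of those tested), 95 of them higher (0.716%) and 63 lower (0.475%). The median fold change of the called genes was modest, 0.70 on the log2 scale for the higher and -0.54 for the lower ones. The preponderance of higher calls rested on single pools. Without S group replicate 5 the counts were 397 higher and 369 lower, and without C group replicate 2 they were 334 and 318. Against the control pools of 10 mice alone they were 348 and 429. Without C group replicate 3 there were 584 higher and 359 lower genes, with 381 and 180 of the original calls among them.

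The protein-coding genes with the smallest P, groups that did not overlap and at least 5 CPM were read next. After Cdkn1a came Pik3ip1, a negative regulator of PI3 kinase abundant in resting lymphocytes (chromosome 11, positions 3330401 to 3342971). It stood at 13.7, 13.1, 14.9, 12.2 and 17.7 CPM in the S group pools, against 8.90, 6.37, 5.30, 9.59 and 8.08 CPM in the C group pools, every S group pool above every C group pool (log2 fold change 0.91, standard error 0.191, adjusted P = 0.644). Cxcr5, the chemokine receptor that guides B cells into follicles (chromosome 9, positions 44511787 to 44561877), stood at 40.3, 21.7, 32.9, 24.7 and 46.4 CPM in the S group pools, against 21.6, 14.8, 15.5, 18.4 and 15.6 CPM in the C group pools (log2 fold change 0.95, standard error 0.209, adjusted P = 0.746). The lowest S group value of Cxcr5 lay only just above the highest of C group. Adora2a, the adenosine receptor that raises cyclic AMP in platelets and T cells (chromosome 10, positions 75316877 to 75334784), was higher by 0.71 (adjusted P = 0.746). Jun, a component of the AP-1 transcription factor (chromosome 4, positions 95049034 to 95052222), was higher by 0.51 (adjusted P = 0.746). Vars2 (the mitochondrial valine-tRNA synthetase), Parp3 (an ADP-ribosyltransferase), Dusp10 (a MAP kinase phosphatase) and Pom121 (a nuclear pore protein) were higher by 0.80, 0.57, 0.49 and 1.08. Tnks1bp1, Zgpat, Tbc1d25, Hmgxb3 and Tmem214 were also among the 15, with log2 fold changes from 0.59 to 0.78. All 15 kept P under 0.05 in the 20 alternatives.

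A few genes below 5 CPM ranked as high and were picked after their values were seen. The inducible heat shock gene Hspa1b stood at 7.02, 2.06, 6.44, 3.65 and 3.60 CPM in the S group pools, against 0.640, 0.997, 1.73, 1.03 and 1.47 CPM in the C group pools (log2 fold change 1.95, adjusted P = 0.365). In PBMC its log2 fold change was 1.03, which also passed the unadjusted threshold. The immunoglobulin heavy chain variable segments Ighv1-69, Ighv14-4 and Ighv1-54 were higher by 2.29, 2.05 and 2.90, from means of 0.388, 0.290 and 0.132 CPM in C group. Variable segments resemble each other, and reads can be split between copies.

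The genes higher in S group were mostly genes whose RNA is more abundant in PBMC than in platelets. As a measure that used none of these 10 libraries, the level in PBMC of C group was set against that in platelets of O group. Of the 569 higher genes, 400 (70.3%) were more than 2-fold more abundant in PBMC, against 16.9% of all genes tested. Of the 283 lower genes, 3 (1.06%) were PBMC-rich in this sense and 112 (39.6%) were more than 2-fold more abundant in platelets, against 21.6% of all genes tested. In the class of PBMC-rich genes the median log2 fold change between S and C group was 0.37, and in the platelet-rich class it was -0.14. The share called higher was 17.8% in the former and 0.348% in the latter.

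**Figure D3:**
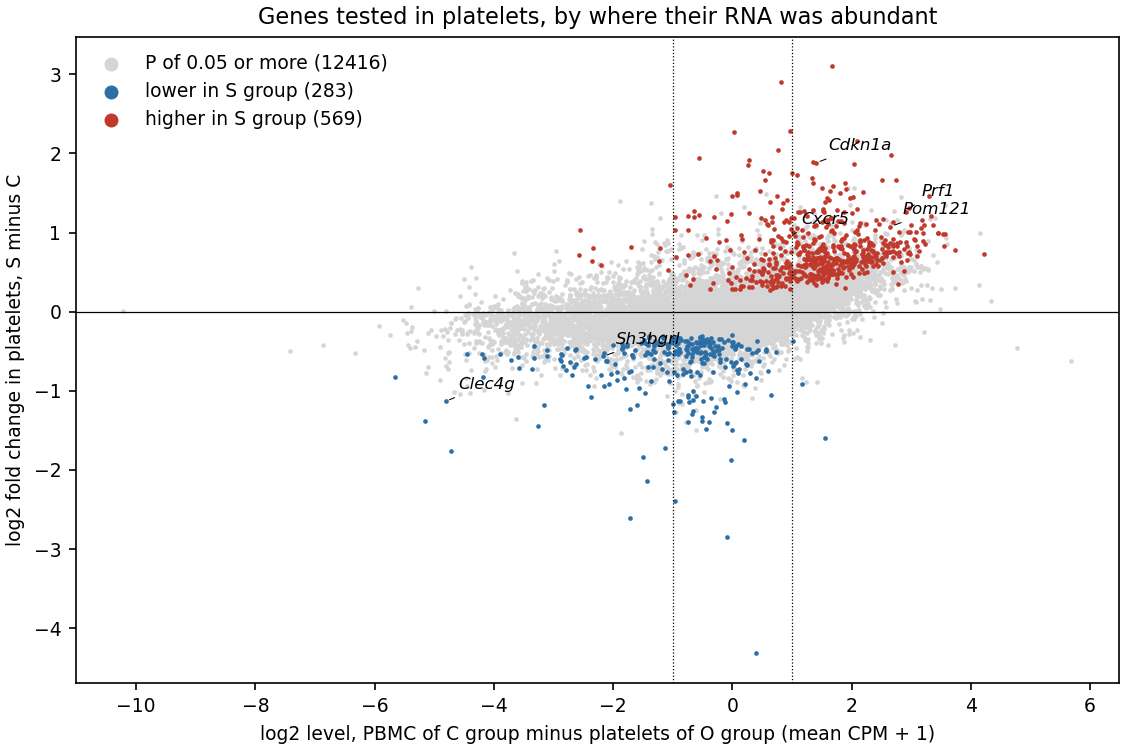
Log2 fold change in platelets (S minus C, vertical axis) of each gene tested against its log2 level in PBMC of C group minus platelets of O group (horizontal axis, dotted lines at a 2-fold difference). Red points, 569 genes higher in S group, lie mostly to the right, and blue points, 283 lower genes, mostly to the left.

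Lymphocyte genes were among them. Of 79 B, T and NK cell markers tested, 22 were higher and none lower, against 4.29% and 2.13% of all genes tested, with a median log2 fold change of 0.27 against -0.01. There were 26 higher without C group replicate 3. PBMC-rich genes made up 45 of the 79 markers, and of PBMC-rich genes of any kind 17.8% were called higher, with a median of 0.37. The 8 B cell genes included Cd79a (signalling chain of the B cell receptor), Cxcr5, Cd72, Cd22, Fcer2a, Ly6d and Fcmr. Without S group replicate 5 only 3 of the 30 B cell markers passed and their median, 0.17 with all pools, was no longer above 0, and without S group replicate 1, C group replicate 2 or C group replicate 4 there were 5. Against the control pools of 10 mice 4 B cell and 7 T cell markers passed. Cd79a stood at 236, 146, 219, 128 and 273 CPM in the S group pools, against 150, 105, 133, 113 and 117 CPM in the C group pools (log2 fold change 0.70, adjusted P = 0.746). The groups overlapped for Cd79a. The 9 T cell genes were Cd3e and Cd3g (chains of the T cell receptor complex), Cd4, Cd5, Cd6, Cd27, Cd247, Thy1 and Foxp3. Cd3e stood at 15.7, 8.16, 14.7, 8.19 and 24.2 CPM in the S group pools, against 12.3, 5.68, 3.96, 7.88 and 6.01 CPM in the C group pools (log2 fold change 0.99, adjusted P = 0.746). The 5 NK and cytotoxic genes were Prf1 (perforin), Gzmb (granzyme B), Il2rb (a chain of the IL-2 and IL-15 receptors), Nkg7 and Klrg1, and 9 of the list passed without S group replicate 4 or C group replicate 3 (of 19 tested) and against the control pools of 10 mice (of 20). Prf1 stood at 15.6, 9.09, 20.5, 4.79 and 12.5 CPM in the S group pools, against 7.68, 1.91, 4.85, 5.69 and 5.14 CPM in the C group pools (log2 fold change 1.31, adjusted P = 0.746).

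Other lymphocyte markers did not pass. Of the defining markers, Ms4a1 (CD20), Cd79b, Cd3d, Cd8a, Ncr1, Klrb1c and Klrd1 had log2 fold changes from 0.22 to 0.59, and none passed the threshold. The summed level of the 30 B cell markers was 2477 to 4196 CPM across the S group pools and 2455 to 2788 CPM across the controls. That of the 30 T cell markers was 889.7 to 1087 CPM and 819.4 to 913.9 CPM, so both sums overlapped. The count over the 3 lists lay between 16 and 34 in the alternatives, all of them higher except for 3 lower genes with voom. The part of lymphocytes in the platelet preparations in these values was not tested.

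Among genes of immune communication every call was higher as well. Of 173 tested members of 7 lists (antigen presentation, chemokines and cytokines with their receptors, adhesion and costimulation, toll-like receptors), 38 were higher and none lower, against 4.29% and 2.13% of all genes tested, with a median log2 fold change of 0.36. PBMC-rich genes made up 103 of the 173. Of PBMC-rich genes of any kind 17.8% were called higher, with a median of 0.37, so the immune lists are not set apart from that class. Among ligands, Cd40lg (the T cell ligand of CD40) stood at 2.66, 2.77, 1.86, 1.48 and 2.96 CPM in the S group pools, against 0.640, 0.433, 0.743, 1.30 and 0.935 CPM in the C group pools, without overlap (log2 fold change 1.55, standard error 0.351, adjusted P = 0.746). Csf1, the macrophage growth factor, and Ccl4, a chemokine of activated lymphocytes and monocytes, were both higher by 1.09 (adjusted P = 0.746 for both). Ccl3 and Cxcl16 were the other ligands that passed. Among receptors, 8 of 22 chemokine and trafficking receptors were higher, with a median of 0.56. Ccr7, which brings lymphocytes and dendritic cells to lymph nodes, stood at 52.3, 31.7, 45.4, 24.4 and 62.5 CPM in the S group pools, against 31.8, 21.97, 25.8, 25.7 and 23.6 CPM in the C group pools (log2 fold change 0.75, adjusted P = 0.746). Its groups overlapped through S group replicates 2 and 4. Cxcr3, Cxcr4, Cxcr6, Ccr6, S1pr4 and the homing integrin Itgb7 were the others beside Cxcr5. Of 44 cytokine receptors, 9 were higher, among them Cd40, whose groups did not overlap (log2 fold change 0.79, adjusted P = 0.746), and Il4ra (0.69, adjusted P = 0.746).

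Of 36 adhesion and costimulatory genes, 9 were higher and none lower, against 4.29% and 2.13% of all genes tested, which is also the background of the lists that follow. Icam1, the ligand of leukocyte integrins, stood at 12.2, 7.17, 14.0, 6.96 and 15.8 CPM in the S group pools, against 7.04, 3.47, 5.50, 8.36 and 6.88 CPM in the C group pools (log2 fold change 0.85, adjusted P = 0.746). Icam2, which platelets themselves carry, was higher by 0.68 (adjusted P = 0.746). Of 17 toll-like receptor genes, Tlr9, the sensor of unmethylated DNA, and Unc93b1, which carries it to endosomes, were higher (11.8%). Tlr9 stood at 8.51, 6.10, 8.30, 7.51 and 19.3 CPM in the S group pools, against 6.92, 3.94, 4.36, 6.17 and 4.07 CPM in the C group pools (log2 fold change 0.97, adjusted P = 0.746), with S group replicate 5 far above the rest. In antigen presentation, 3 of 11 MHC class II genes (H2-DMb1, H2-DMb2, H2-Ab1; 27.3%) and 5 of 22 class I genes (Tap1, Tap2, H2-Q6, H2-Q7, Nlrc5; 22.7%) were higher. The summed level of the class I list ran the other way, with a mean of 10533 CPM in S group (7122 to 13856) and 13162 CPM in C group (10013 to 16764), and the groups overlapped. So did the sums of chemokines and cytokines (means 10063 and 11630 CPM in S and C group) and of adhesion and costimulatory genes (5393 and 5875 CPM), with overlap. The mean sums of MHC class II genes, chemokine receptors, cytokine receptors and toll-like receptor genes were higher in S group. H2-Q6 and H2-Q7 are near-identical copies. H2-DMb2, which helps load peptides, stood at 70.4 ± 18.6 and 45.6 ± 7.73 CPM (SD, n = 5) in S and C group (log2 fold change 0.63, adjusted P = 0.746).

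The number of these genes that passed depended on 5 pools more than on the others. It went from 38 to 25 without S group replicate 1, to 22 without S group replicate 5 and to 23 without C group replicate 2, and to 59 without C group replicate 1 or without S group replicate 4. Without C group replicate 3 there were 36 higher and 1 lower. The median was 0.14 without S group replicate 5. Of the chemokine and trafficking receptors 5 passed without S group replicate 1, and their median was 0.16 without S group replicate 5, and 3 passed against the control pools of 10 mice. Of the cytokine receptors 19 passed without C group replicate 1, 18 without S group replicate 4, 5 without S group replicate 5 or C group replicate 2, and 2 against the control pools of 10 mice. Chemokines and cytokines had between 3 and 9 higher with 1 pool left out and 15 with voom, and the adhesion and costimulatory genes had between 7 and 11 with 1 pool left out and 4 against the control pools of 10 mice. Of the MHC class I genes 1 passed without S group replicate 5, 2 without S group replicate 1 or C group replicate 2, 3 without C group replicate 3 or 5, 9 without C group replicate 1 and 11 without S group replicate 4. Of the MHC class II genes 1 passed without S group replicate 5, and of the toll-like receptor genes between 1 and 4 passed with 1 pool left out. Against the control pools of 10 mice alone, 15 of the genes were higher and none lower.

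Markers of other cell types were tested in the same way. Of 23 monocyte and macrophage markers, only Ms4a6c passed (higher), a share of 4.35% against 4.29% of all genes. The median of the list was 0.46 and 20 of 23 were above 0. Its summed level had a lower mean in S group, 2657 against 2809 CPM in C group, and the groups overlapped. This list turned on single pools, with 9 higher without C group replicate 1 (median 0.66), 6 without S group replicate 4, and none without S group replicate 5 (median 0.13), S group replicate 3 or C group replicate 2, 4 or 5. No neutrophil marker (17 tested), dendritic cell marker (16) or endothelial marker (12) passed in the reported fit with all pools. With edgeR on all genes with a count 2 neutrophil markers were higher and 3 lower, and 1 endothelial marker was lower. With voom 1 dendritic cell marker was higher. Of the neutrophil markers 2 were lower without S group replicate 2 or C group replicate 4 or 5, 2 were higher without C group replicate 3, and 7 were higher with voom. Of the dendritic cell markers 1 was lower without S group replicate 1 and 1 higher without C group replicate 1, and of the endothelial markers 1 was lower without S group replicate 3 or C group replicate 3 or 5, with voom, with the replicate block and against the control pools of 10 mice. The melanocyte and melanoma genes Tyr, Tyrp1, Mlana and Dct had 6, 9, 5 and 41 counts in all 10 libraries together and did not pass the filter. With edgeR on all genes with a count, 10 genes of this list were tested, 3 were lower in S group and none was higher. The list summed to 6.84 CPM in C group replicate 3, the pool with eye RNA, and to 7.03 CPM in S group replicate 5. The other pools lay between 2.54 and 3.95 CPM. Pmel, with S and C group medians of 1.92 and 1.69 CPM, did not pass (log2 fold change 0.38, adjusted P = 0.835). Of the 34 replication-dependent histone genes 1 was lower (Hist1h1c), a share of 2.94% against 2.13% of all genes. Of 32 type I interferon response genes none passed in the reported fit with all pools (median -0.15). With voom 1 of these was lower, and with edgeR on all genes with a count 1 was higher and 1 lower. Of the interferon response genes 4 were lower without S group replicate 2 or C group replicate 2, and 5 against the control pools of 10 mice, while 1 was higher without S group replicate 4 and 1 higher and 1 lower without C group replicate 1. Of the histone genes 9 were lower without S group replicate 3, 6 without C group replicate 5, 4 without C group replicate 3, 1 without C group replicate 2, and none without any other single pool.

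**Figure D4:**
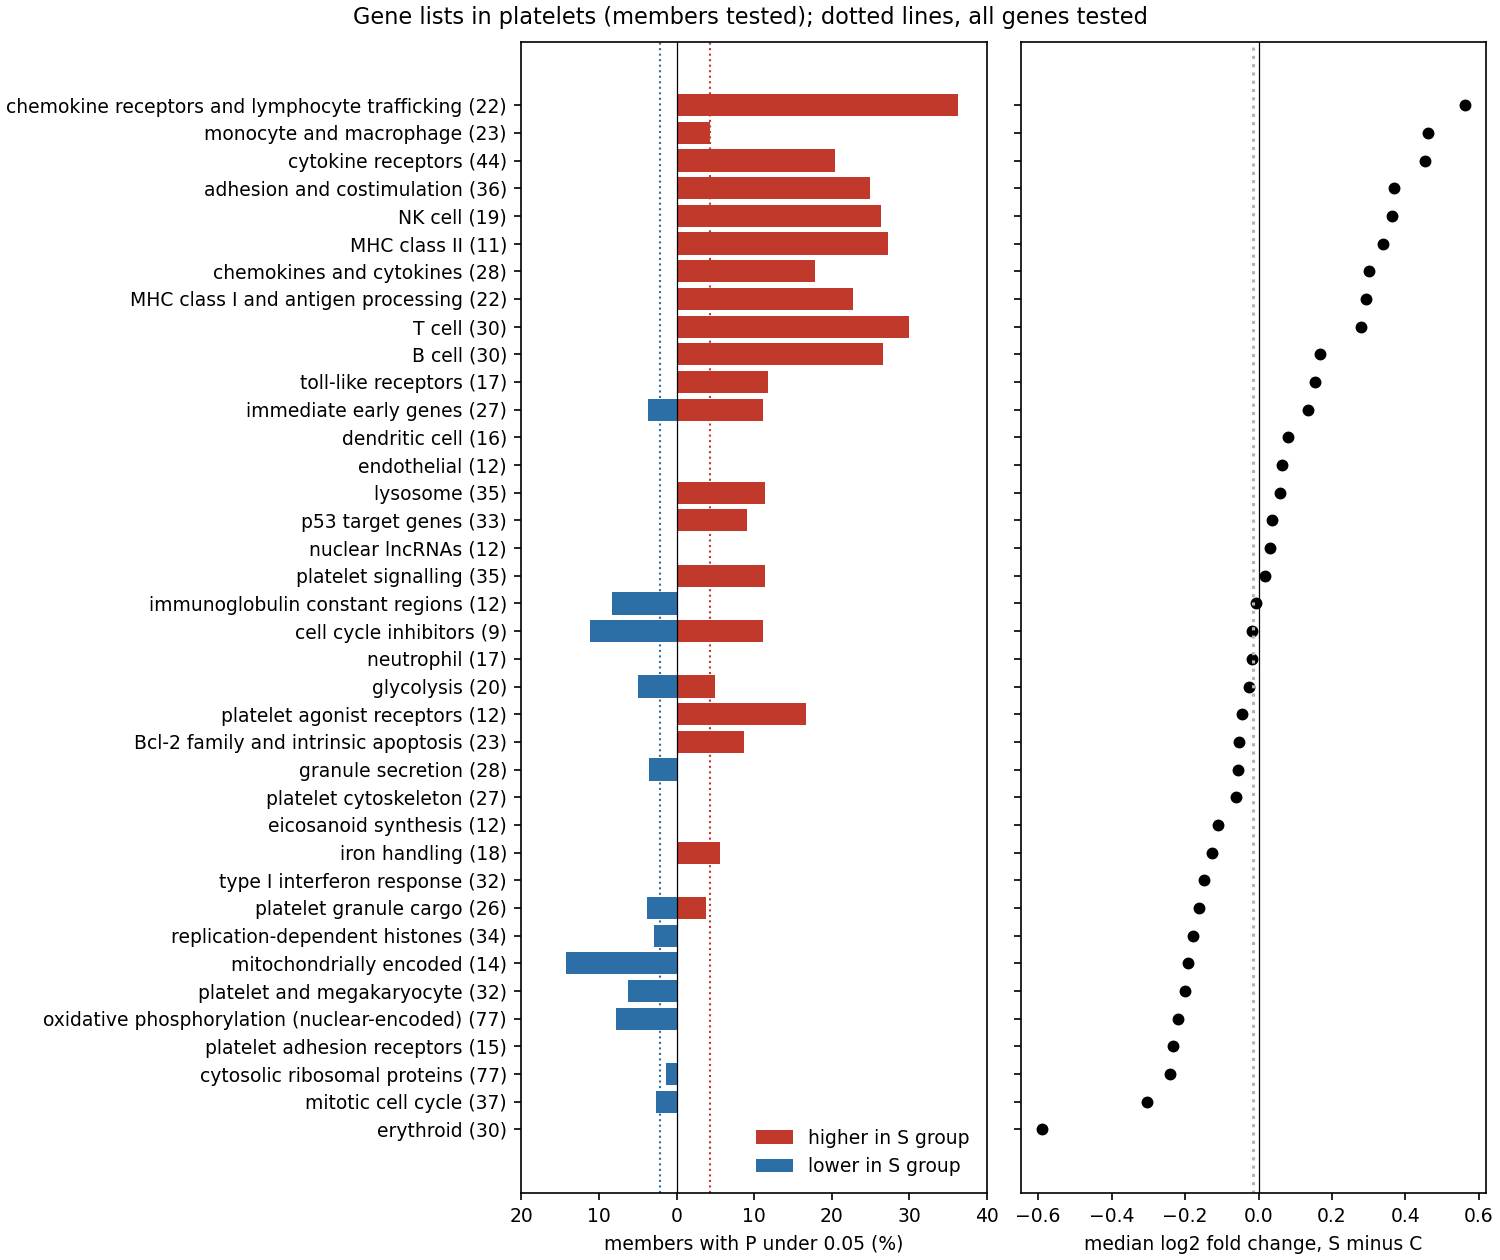
Left, percent of the tested members of each list (number in brackets) with P under 0.05, higher in S group to the right and lower to the left. Right, median log2 fold change. Dotted lines mark all genes tested (4.29% higher, 2.13% lower, median -0.01), with immune lists at the top and the erythroid list, at a median of -0.59, at the bottom.

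The platelet's own genes passed about as often as all genes did. Over 8 lists of platelet genes, 163 were tested, 7 were higher and 3 lower, against 4.29% and 2.13% of all genes tested, and the median log2 fold change was -0.08. That median was 0.06 without C group replicate 1, where 12 were higher and 2 lower, and 0.05 with voom. Without C group replicate 3 there were 6 higher and 8 lower, and without S group replicate 3 there were 3 and 6. Against the control pools of 10 mice 2 were higher and 6 lower, and without C group replicate 2 there were 3 and 4. Of 32 platelet and megakaryocyte markers none was higher, 2 were lower and 5 lay above 0 (median -0.20). Signalling genes had 4 of 35 higher and agonist receptor genes 2 of 12, with none lower. Of the markers, Pf4 stood at 4140 ± 1463 and 4727 ± 1639 CPM and Itga2b at 6084 ± 1909 and 6848 ± 3326 CPM (SD, n = 5) in S and C group. None of 15 adhesion receptor genes passed in the reported fit with all pools, nor did any of 27 cytoskeletal or 12 eicosanoid genes. Without S group replicate 3 or C group replicate 3, 2 adhesion receptor genes were lower. So were 2 with voom and 2 against the control pools of 10 mice. The members lower in S group were F13a1 (the A chain of clotting factor XIII), Clca3a1 and Vamp7 (a SNARE protein of vesicle fusion). F13a1 stood at 279, 333, 388, 226 and 332 CPM in the S group pools, against 1014, 661, 267, 396 and 370 CPM in the C group pools (log2 fold change -0.80, adjusted P = 0.752), led by C group replicates 1 and 2. Vamp7 lay between 7.83 and 9.52 CPM in the S group pools and between 9.66 and 14.1 CPM in the controls, without overlap (log2 fold change -0.45, adjusted P = 0.746). The higher members were Adora2a, the thromboxane receptor Tbxa2r, the signalling genes Pik3r5, Plcb2, Plcb3 and Lat2, and Serping1 (C1 inhibitor). Tbxa2r lay between 3.99 and 5.02 CPM in the S group pools and between 2.60 and 3.56 CPM in the controls (log2 fold change 0.44, adjusted P = 0.769). It passed in 7 of the 20 alternatives.

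No erythroid gene passed in the reported fit with all pools. Other fits with all pools called some lower, 7 of 31 with edgeR on all genes with a count and 3 of 30 with voom. In the reported fit all 30 tested members had a log2 fold change below 0, with a median of -0.59. That median was -0.33 without C group replicate 1, where 7 members were above 0, and -0.34 with the replicate block, where 3 were. Hba-a1, an alpha globin gene, stood at 69577, 175228, 115605, 62565 and 85062 CPM in the S group pools, against 241998, 38538, 130071, 166800 and 204187 CPM in the C group pools (log2 fold change -0.62, adjusted P = 0.829). The low control value was again C group replicate 2. Without that pool 13 of the 30 passed as lower, 4 did without S group replicate 5 or C group replicate 3, and against the control pools of 10 mice alone 24 did (median -0.97). By the labels every pool of that last comparison held 10 mice, although the methods give other sizes for a pair of them, and it leaves out the hemoglobin-poor pool.

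Genes of mitochondrial respiration and translation had medians below 0, which lay close to 0 in some settings. Of 77 nuclear-encoded oxidative phosphorylation genes, 6 were lower and none higher, against 2.13% and 4.29% of all genes tested, and the median was -0.22. Cox7b, a subunit of cytochrome c oxidase, stood at 34.8, 41.5, 39.8, 31.4 and 31.6 CPM in the S group pools, against 69.7, 40.3, 58.6, 48.7 and 50.5 CPM in the C group pools (log2 fold change -0.58, adjusted P = 0.746). Its groups touched only through C group replicate 2. Atp5k, of ATP synthase, was also lower (adjusted P = 0.746, log2 fold change -0.62), and Cox6c, Cox7c, Ndufa6 and Ndufc2 also passed. Without C group replicate 3 the median of the list was -0.12, with 4 lower and 1 higher, and without S group replicate 5 there were 2 lower genes. Without S group replicate 1 or 4 there were 3 and 2, and without S group replicate 3 or C group replicate 5 there were 14 and 11. Of 77 ribosomal protein genes, Rps29 alone passed (lower), a share below that of all genes, while 73 were below 0 and the median was -0.24. Without C group replicate 3 that median was -0.06, and without C group replicate 1 there were 8 lower. Against the control pools of 10 mice the medians of the 2 lists were -0.09 and -0.03, with 2 oxidative phosphorylation genes higher and 2 lower, and with voom they were -0.04 and -0.05. Of the 14 mitochondrially encoded genes mt-Nd3 and mt-Co2 were lower, and none passed without S group replicate 1, S group replicate 5 or C group replicate 1. Of 37 mitotic genes Rrm2, a subunit of ribonucleotide reductase, was lower (log2 fold change -0.58, adjusted P = 0.746), and the median of the list was -0.30. There were 5 lower without C group replicate 1 or 2, 3 without C group replicate 3, and none without C group replicate 5.

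Of 27 immediate early genes, Jun, Zfp36 and Fosl2 were higher (11.1%) and Myc lower (3.70%), against 4.29% and 2.13% of all genes tested (median 0.13). With 1 pool left out between 1 and 5 of them were higher. Lysosomal genes had 4 of 35 higher (11.4%; Mcoln1, Man2b1, Neu1, Lipa), a count that rested on single pools. None was higher without S group replicate 5 or C group replicate 2, 3 or 5, while 9 were without S group replicate 2 or 4 and 10 without C group replicate 1. In glycolysis, Aldoc was lower and Gapdh higher, but Gapdh stood at 68.8 CPM in S group replicate 3 and at no more than 5.66 CPM in any other library, and this gene has many processed copies that share its reads. It did not pass without that pool. Of 12 immunoglobulin constant region genes Ighg1 was lower, with 18.2 CPM in C group replicate 3 and no more than 5.67 CPM in any other library, and no gene of this list passed without that pool. Of 23 genes of the Bcl-2 family and intrinsic apoptosis, Bbc3 and the low-level gene Bik were higher (8.70%), and 1 was without S group replicate 3. No nuclear lncRNA of 12 passed.

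The 15 protein-coding genes that led the lower side by the same rule were all more abundant in platelets of O group than in PBMC of C group. Clec4g, a C-type lectin (chromosome 8, positions 3707064 to 3720651), stood at 7.02, 7.31, 7.80, 6.28 and 4.76 CPM in the S group pools, against 25.8, 16.9, 8.07, 11.2 and 10.7 CPM in the C group pools (log2 fold change -1.13, standard error 0.282, adjusted P = 0.746). Its highest S group value and its lowest C group value were close. Smim15, a small membrane protein (chromosome 13, positions 108044446 to 108049172), stood at 29.4, 30.7, 31.0, 27.1 and 24.3 CPM in the S group pools, against 37.7, 46.5, 41.6, 39.5 and 39.3 CPM in the C group pools, well apart (log2 fold change -0.52, standard error 0.132, adjusted P = 0.746). Syap1 (chromosome X), Vbp1 (a prefoldin subunit that helps fold tubulin and actin), As3mt (arsenic methyltransferase) and Cep70 (a centrosomal protein) followed with -0.51, -0.54, -0.66 and -0.76. The rest were Ublcp1, Sh3bgrl, Orc4, Otud6b, Ugp2, Selenot, Zc3h15, Ufm1 and Oxr1, from -0.38 to -0.58. Of these, Ufm1 encodes a ubiquitin-like modifier and Orc4 a subunit of the origin recognition complex. For all 15, P stayed under 0.05 in at least 18 of the 20 alternatives.

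The called genes also differed in base composition, which was examined after the calls were seen. The median GC content of the longest transcript was 53.7% for the higher genes, 43.7% for the lower genes and 49.6% for all genes tested (99.9% of them had a value). Over 5 equal classes from the lowest to the highest GC content the share called higher went through 0.566%, 1.77%, 4.07%, 7.32% and 7.69%, and the share called lower through 5.51%, 2.45%, 1.09%, 0.83% and 0.754%. Among PBMC-rich genes the share called higher was 3.59%, 7.46%, 16.5%, 30.3% and 27.7% over these classes, with its peak in the fourth. Among platelet-rich genes the share called lower was 11.2%, 4.51%, 2.08%, 1.72% and 0.997%. The slope of a library's log2 level on GC content, per 10 percentage points, was 0.19, 0.05, 0.24, 0.03 and -0.10 in the S group pools and 0.06, -0.12, -0.04, -0.08 and -0.21 in the C group pools, so that the groups overlapped. After each library's trend on GC content was taken out, 453 genes were higher and 211 lower, with 394 and 132 of the original calls among them. Cdkn1a then had a log2 fold change of 1.78 and an adjusted P of 0.0335, the count of lymphocyte markers was 20 and that of the immune genes 31. Single lists moved more under this correction. The higher B cell markers went from 8 to 5, the NK markers from 5 to 8, the MHC class I genes from 5 to 2 and the platelet genes from 7 to 2. The lower oxidative phosphorylation genes went from 6 to 15 and the lower histone genes from 1 to 5, and no mitochondrially encoded gene passed. How much of the called list goes with GC content for technical reasons was not tested.

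**Figure D5:**
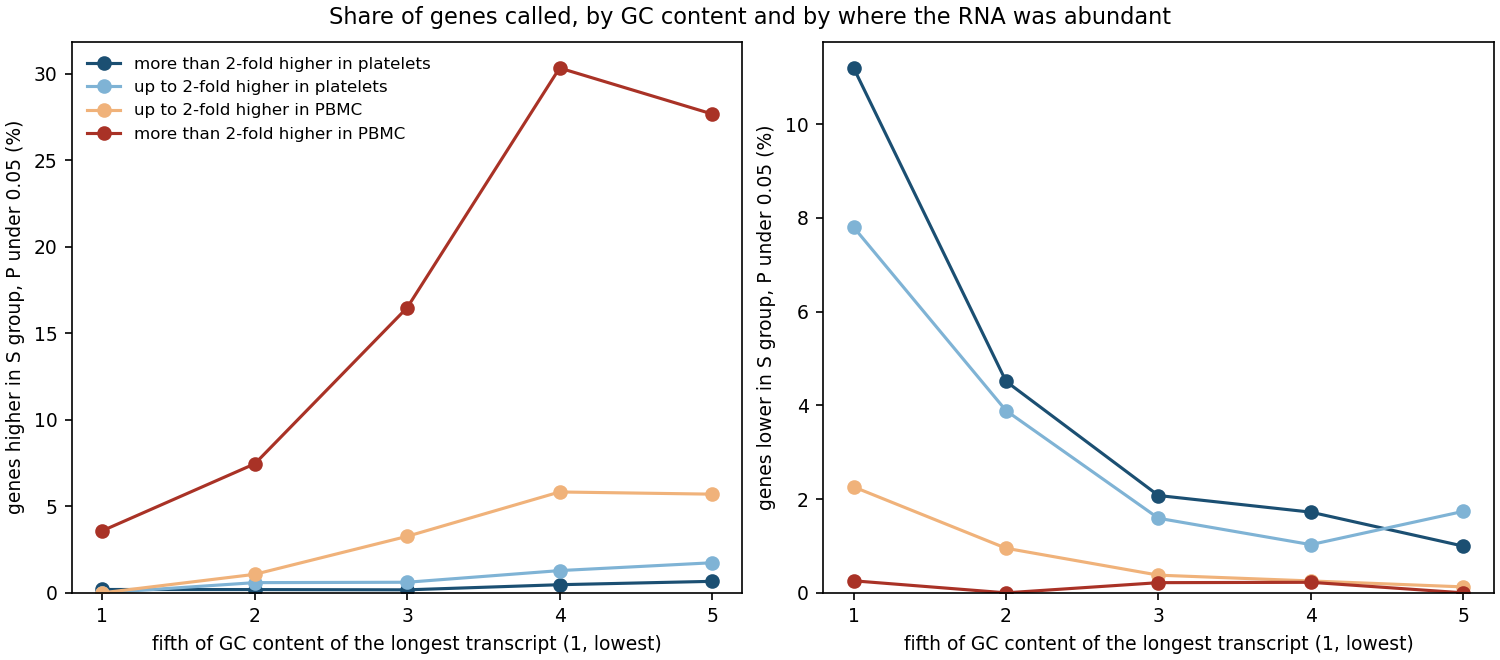
Percent of genes with P under 0.05 that were higher (left) or lower (right) in S group, by class of GC content (horizontal axis) and by where the RNA was more abundant (lines). Higher calls among PBMC-rich genes reach 30.3% in the fourth class and 27.7% in the highest, and lower calls 11.2% among platelet-rich genes of the lowest.

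In PBMC the same contrast called fewer genes, 400 of 15139 (2.64%), 186 higher (1.23%) and 214 lower (1.41%). The difference between the platelet and the PBMC response had P under 0.05 for 1094 of 16094 genes (6.80%), of which 741 (4.60%) were higher and 353 (2.19%) lower in platelets, and for none after adjustment. Of the T cell markers 7 of 30, of the adhesion and costimulatory genes 8 of 36 and of the cytokine receptors 7 of 44 had such a difference. Of the chemokine receptors 5 of 22 and of the NK cell markers 3 of 19 did, but 1 of 30 B cell markers, 2 of 28 chemokines and cytokines, 2 of 22 MHC class I genes and none of 23 monocyte markers. Cd40lg was among them, at -0.05 in PBMC and 1.55 in platelets (difference 1.61, adjusted P = 0.31). Pik3ip1 stood at -0.03 and 0.91 (difference 0.94, adjusted P = 0.31). Tlr9 and Icam1 stood at 0.00 and 0.07 in PBMC. The PBMC were taken from the bottom layer of blood spun for platelets, so platelet and PBMC libraries can come from the same mice. They share no counts, and the fit treated the 20 libraries as independent. PBMC of S group replicate 3 detected 32900 genes, against no more than 22991 in the other libraries of either group, and without it 905 genes differed, again none after adjustment.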

How the data were processed

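Poly(A) RNA was sequenced on an Illumina NovaSeq. The authors aligned reads with HISAT2 2.0.5 and counted them per gene with featureCounts 1.5.0-p3, and the deposited values are these raw counts for 54532 Ensembl genes. The kit is not stated to keep strand, so antisense and overlapping genes cannot be told apart. The labels name the build mm9, but 54495 of the gene identifiers are those of GENCODE release M21, whose GRCm38 positions and symbols are given. Analyses used R 4.3.3. The test was edgeR 4.0.16 (quasi-likelihood F test, two-sided, filterByExpr, TMM), with group as the single term. A standard error is the size of the log2 fold change over the square root of F. The threshold was an unadjusted P under 0.05, as in the study, with Benjamini-Hochberg adjusted values beside it. Alternatives used DESeq2 1.42.0, limma 3.58.1 (voom), other filters, size factors, samples and a replicate block. The GC correction, the fit without PBMC S group replicate 3 and the eye gene list were added after the data had been seen. The platelet to PBMC difference is an interaction term over 20 libraries. Named genes were those past the adjusted threshold, the 15 higher and 15 lower protein-coding genes of smallest P with groups that do not overlap and at least 5 CPM, the 4 members of smallest P of each list, defining markers, and Tlr9, Icam1, Ccr7 and Ifng. Ifng did not pass the filter, and some genes that the rule names are not reported here. The members and lists were chosen with earlier results of these data known. On simulated counts edgeR recovered 34 of 98 genes changed 2-fold and 91 of 94 changed 4-fold at an adjusted P under 0.05, and called 5 unchanged genes. Each gene was drawn on its own, without the shifts that genes of a pool share, so these shares are not the power of the real data. Intervals were not computed, and the spread between pools is the error throughout. Promoter windows are RefSeq's. The authors' FPKM values were not used.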

Additional observations from a re-analysis of the deposited data

Results flagged for a closer look

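Of 152 groups of 5 values examined, 15 held a value far from the other 4 (gap over range above 0.71), where chance alone gives about 1 in 20. In S group, replicate 5 was the distant pool for 7 genes, the nuclear pore gene Pom121 (17.4 CPM, ratio 0.838), Tlr9 (19.3 CPM, 0.817), the band 3 gene Slc4a1 (468 CPM, 0.715), Ms4a1 (157 CPM, 0.827), Pmel (5.13 CPM, 0.829), the monocyte chemokine receptor gene Ccr2 (79.6 CPM, 0.766) and the neutrophil receptor gene Csf3r (75.8 CPM, 0.748). It was the highest value in each case. This pool also had the most genes detected, 21292. S group replicate 2 was highest for the calprotectin genes S100a8 (110 CPM, 0.795) and S100a9 (153 CPM, 0.798). In C group, replicate 2 was highest for Sh3bgrl (235 CPM, 0.944) and Orc4 (44.7 CPM, 0.882), replicate 3 for Ugp2 (32.1 CPM, 0.744) and Cd3d (29.6 CPM, 0.756), and replicate 1 for Cd4 (20.1 CPM, 0.811) and the dendritic cell receptor gene Xcr1 (14.0 CPM, 0.822). Sh3bgrl and Orc4 were lower in S group by 0.56 and 0.51 on the log2 scale (log2 fold changes -0.56 and -0.51), and their other 4 control pools still lay above every S group pool.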

How the results depend on the processing

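The count of 852 genes became 2097 with edgeR on all genes with a count and 2081 with voom, and ran from 556 (without S group replicate 1) to 1542 (without C group replicate 1) when 1 pool was left out. It stayed within 1.5 times under the other alternatives, with 766 under the replicate block (530 higher, 236 lower). Same-numbered pools did not deviate together (r from -0.26 to 0.24), so the numbers were not taken as pairs. The single adjusted call became 9 (DESeq2), 6 (DESeq2, all genes with a count) and 33 (edgeR, all genes with a count), of which 22 were eye genes lower in S group. It became 0 with RLE size factors, the replicate block, all 3 platelet groups in one fit, or the control pools of 10 mice, and 0 or 1 when 1 pool was left out. The platelet to PBMC difference became 2553 genes with all genes counted, 2 of them adjusted, and 1148 with the replicate block. No named gene that passed changed direction. The share of higher calls, 66.8%, was 51.6% with voom, 51.8% without S group replicate 5, 51.2% without C group replicate 2 and 44.8% against control pools of 10 mice. With 1 pool left out, the S minus C difference ran from 667 to 1337 genes detected, from -7.39 to -4.37 percentage points for the 10 most abundant genes, from -8.38 to -2.80 for hemoglobin and from -0.772 to 1.31 for mitochondrial genes. Genes with few counts limit the precision, and C group replicates 2 and 3 were pools of 5 mice.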

Other observations

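RNA of the eye was also seen in PBMC and in 1 pool of O group platelets. The 34 eye genes summed to 118 CPM of the total count in PBMC of C group replicate 3 and 85.3 in replicate 5, against 25.5 to 39.1 in the other PBMC libraries of S and C group. They summed to 93.8 CPM in platelets of O group replicate 2 and 9.95 to 14.99 CPM in the other pools of that group. These genes were listed after values had been seen, and all blood was drawn at the eye.

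Of the genes called in platelets, 99 of the 569 higher and 24 of the 283 lower ones had P under 0.05 in every one of the 20 alternatives. Hspa1b and Ighv1-69 passed the adjusted threshold in 3 of the 21 fits, both with DESeq2 and with edgeR on all genes, and Cdkn1a in 9.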
